A study of Mus musculus with 4 samples.

Results

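Late cornified envelope and filaggrin genes were followed in mouse dorsal skin and buccal mucosa, the lining of the cheek, with Xenium, an in situ assay that counts single transcripts in a tissue section and assigns each to an outlined cell. The 6 genes, *Lor*, *Ivl*, *Flg*, *Flg2*, *Hrnr* and *Cnfn*, were taken from the 328 genes of the probe panel as its late cornified envelope and filaggrin genes. The mice were TRE-*Pitx1*/*Krt5*-rtTA transgenic, so that doxycycline switches on the transcription factor PITX1 in cells with an active *Krt5* promoter, the basal cells of stratified epithelium and hair follicles. PITX1+ mice received doxycycline chow for 6 weeks from the resting phase of the hair cycle, Control mice were littermates without doxycycline, and the buccal mucosa came from Control mice of both sexes. Unwounded skin gave 3 Control sections (1 and 2 female, 3 male) and 4 PITX1+ sections (1 and 2 female, 3 and 4 male), the cheek gave 7 sections, and male skin on day 4 after wounding gave 1 Control and 2 PITX1+ wounds. The study counts the PITX1+ sections as mice, while for the Control and buccal sections the sources used here do not say that each is a separate animal, so p-values measure the spread between sections, which may be technical in part. Slide and sex are the same variable in unwounded skin.

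The cornified envelope is the cross-linked protein shell that replaces the plasma membrane of a keratinocyte at the end of its differentiation. Involucrin is laid down early as its scaffold, loricrin forms much of its bulk in the epidermis, and transglutaminases join them with small proline-rich proteins. Filaggrin is cut from a large precursor stored in keratohyalin granules, bundles keratin filaments and is then broken down to amino acids that hold water, while filaggrin-2 and hornerin are related S100 fused-type proteins of the same granular and cornified layers. Cornifelin is a small cysteine-rich protein of the envelope. The cheek is a lining mucosa, and the study describes its epithelium as thicker than the epidermis, kept moist and not keratinizing in the way skin does.

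*Lor*, *Ivl*, *Flg*, *Flg2* and *Hrnr* lie on mouse chromosome 3, in the epidermal differentiation complex, and *Cnfn* lies on chromosome 7. Their proximal promoters are shown because genes of a shared locus were counted at such different levels in the epithelia described below. All 6 were matched by symbol to RefSeq promoters of build GRCm38.p6, and the 150 bases upstream of each start are printed 5′ to 3′ on the strand of the gene, with capitals for a match to TGANTCA, which covers the AP-1 consensus. The windows are chr3:92083143-92083292 (minus strand) for *Lor*, chr3:92573736-92573885 (minus) for *Ivl*, chr3:93273396-93273545 (plus) for *Flg*, chr3:93197123-93197272 (plus) for *Flg2*, chr3:93319599-93319748 (plus) for *Hrnr* and chr7:25369725-25369874 (minus) for *Cnfn*.
Lor: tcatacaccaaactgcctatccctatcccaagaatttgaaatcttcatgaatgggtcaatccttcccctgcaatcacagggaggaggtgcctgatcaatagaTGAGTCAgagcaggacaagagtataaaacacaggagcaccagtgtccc
Ivl: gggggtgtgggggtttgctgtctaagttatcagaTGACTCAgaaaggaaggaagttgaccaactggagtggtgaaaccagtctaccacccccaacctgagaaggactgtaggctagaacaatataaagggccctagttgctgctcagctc
Flg: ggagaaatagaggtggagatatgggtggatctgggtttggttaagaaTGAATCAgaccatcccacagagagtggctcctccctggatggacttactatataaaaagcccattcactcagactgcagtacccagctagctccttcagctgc
Flg2: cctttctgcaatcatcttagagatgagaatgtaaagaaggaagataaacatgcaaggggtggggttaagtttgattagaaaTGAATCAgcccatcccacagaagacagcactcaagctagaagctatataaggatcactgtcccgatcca
Hrnr: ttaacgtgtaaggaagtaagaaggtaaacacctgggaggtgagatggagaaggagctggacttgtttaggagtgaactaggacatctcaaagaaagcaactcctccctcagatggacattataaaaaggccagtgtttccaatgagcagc
Cnfn: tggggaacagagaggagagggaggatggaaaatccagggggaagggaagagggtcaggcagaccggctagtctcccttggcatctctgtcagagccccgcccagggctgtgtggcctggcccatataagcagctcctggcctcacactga

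Searched on both strands, TGANTCA occurred in 4 of the 6 windows, and in 4.24% of the 32851 RefSeq promoter windows of this length. The match lay 48 to 42 bases upstream of the start in *Lor*, 116 to 110 in *Ivl*, 103 to 97 in *Flg* and 69 to 63 in *Flg2*. TGANTCA is wider than the AP-1 consensus. The match read TGAGTCA in *Lor* and TGACTCA in *Ivl*, which fit that consensus, and TGAATCA in *Flg* and *Flg2*, which does not. TATAAA occurred in *Lor*, *Ivl*, *Flg* and *Hrnr*, against 7.57% of all windows. TAATCC, the sequence known to be bound by PITX1, occurred in 0 of the 6 windows, against 3.6% of all. The longest run that a pair of windows shared was 12 bases, between *Flg* and *Flg2*. A match describes the sequence and was not tested as a site.

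The labels name the tissue and sex of a slide and not the condition of each section, so condition was taken from the position of a section on its slide, as a rule that used no gene. Counting cells with at least 3 genes, each unwounded skin section differed by at most 0.49% from a cell total listed for its condition and by at least 9.08% from the nearest total of another. *Pitx1* was used to check the labels of unwounded skin. Neither check is given for the wounds, so their conditions rest on position alone. Levels are given as CPM, the count scaled to a total of 1000000 panel transcripts in the cells concerned. In keratinocyte-like cells *Pitx1* was at 13.7 CPM in the male Control section, from 2 transcripts, and at 1068 and 871 CPM in the PITX1+ sections. The female Control sections held 60.8 and 53.0 CPM and the female sections placed as PITX1+ 45.7 and 79.9 CPM, so in keratinocyte-like cells as a whole *Pitx1* did not separate the conditions on that slide, and a negative control probe had a median of 222.5 transcripts over that slide. In differentiated-like cells, described below, the female PITX1+ sections held 27.4 and 38.5 CPM of *Pitx1* and the female Control sections 0 transcripts, which at their depth allows up to 43.1 and 66.9 CPM. The female PITX1+ levels lie under those limits, so edgeR's call there (adjusted p = 0.0473) is against 0 transcripts and is not used to check the labels. Results are given for both slides and for each of them. Unwounded sections held 136365 to 5581930 transcripts of a quality score of at least 20, and Control skin the fewest per cell, with medians of 17 to 28 against 30 to 83 in PITX1+ skin.

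Cells were grouped into 45 clusters without the 6 genes, *Pitx1* and the genes of the 3 lists below, and named from marker genes, hence the ending -like. Keratinocyte-like cells numbered 6289, 4826 and 4266 in the Control sections, 24687, 34539, 21832 and 12338 in the PITX1+ sections and 1297 to 4830 in 6 buccal sections. Buccal section 3 had 1 such cell and was left out of every level, share and fit below. The makeup of this class differed between tissues. Cells called differentiated-like, with *Krt1*, *Krt77*, *Krt78* and similar markers, were 10.7%, 9.49% and 32.1% of it in Control skin, 27.04%, 17.6%, 17.8% and 12.3% in PITX1+ skin and 45.5% to 57.4% in the cheek. Basal-like cells were 37.7%, 37.0% and 18.7% of it in Control skin and 11.3%, 9.69%, 4.09% and 13.8% in PITX1+ skin. They held 49.0%, 57.7% and 16.8% of the *Flg2* of the Control sections. Keratinocyte-like cells of no single named kind were 13.5% to 16.0% in Control skin and 23.3% to 41.1% in PITX1+ skin. In section sums, fewer cells of a kind and less RNA per cell cannot be told apart.

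*Flg2*, which encodes filaggrin-2, fell in PITX1+ skin and was nearly absent from the counts of the cheek. In keratinocyte-like cells it was counted at 42318, 46107 and 45157 CPM in Control sections 1 to 3. The PITX1+ sections held 10716, 4694, 5620 and 11707 CPM, and the 6 buccal sections 22.7 to 50.7 CPM with a median of 30.8. The 3 groups did not overlap, so *Flg2* separated Control skin from every other unwounded section. The log2 fold change of PITX1+ against Control skin was -2.46 ± 0.39 (SE, n = 4 and 3, edgeR adjusted p = 0.00845). It was -2.26 on the female slide (adjusted p = 0.000177) and -2.47 on the male slide (adjusted p = 0.00567), lower in 4 of 4 sections. The male slide has 2 PITX1+ sections and 1 Control section, which is assumed to vary like the others in every fit of that slide. Against Control skin the log2 fold change of the cheek was -9.01 ± 0.32 (SE, n = 6 and 3, edgeR adjusted p = 3.05e-09).

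*Flg*, the filaggrin gene, went the other way on the female slide. It was counted at 3950 and 3947 CPM in the female Control sections and at 28441 and 17155 CPM in the female PITX1+ sections. On the male slide the Control section held 8070 CPM and the PITX1+ sections 3768 and 6073 CPM. Both female PITX1+ sections thus lay above every Control section, and both male ones below their own Control section. The female log2 fold change was 2.79 ± 0.38 (SE, n = 2 and 2, edgeR adjusted p = 5.57e-06) and the male one -0.80 ± 0.42 (adjusted p = 0.205). The male change minus the female one was itself tested, at -3.90 ± 0.53 in log2 units (interaction in edgeR, adjusted p = 0.0138). Over both slides the log2 fold change of 1.07 did not pass (adjusted p = 0.357). The female sections are those in which *Pitx1* was not raised over all keratinocyte-like cells, and slide, sex and *Pitx1* level cannot be told apart here. In the cheek *Flg* stood at 75.8 to 251 CPM with a median of 96.9, lower than in Control skin in 6 of 6 sections, with a log2 fold change of -4.04 ± 0.44 (edgeR adjusted p = 1.89e-05).

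*Hrnr*, the hornerin gene, was the member of the filaggrin family that the cheek shared with skin. Its Control levels were nearly equal, at 13104, 13264 and 13116 CPM. The PITX1+ sections held 18753 and 14157 CPM on the female slide and 2830 and 8928 CPM on the male slide, so the female sections lay above and the male sections below all Control sections. The change was 0.58 (edgeR adjusted p = 0.171) and -1.24 (adjusted p = 0.14) on the log2 scale on the female and male slides, and the difference between the slides was -2.14 ± 0.76 (adjusted p = 0.182). Buccal sections held 3187 to 9351 CPM with a median of 5564. After TMM scaling, which sets the bulk of the genes level between sections, the log2 fold change of the cheek was 0.30 ± 0.35 (edgeR adjusted p = 0.451), and with library size alone it was -1.07 (adjusted p = 0.00497). That choice moved the median of all genes by -1.39, so no direction is given for *Hrnr* in the cheek.

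*Lor*, the loricrin gene, was counted at 38573 and 40702 CPM in the female Control sections and at 12541 CPM in the male one. PITX1+ sections held 29522 and 19207 CPM on the female slide and 2432 and 7930 CPM on the male slide. Each PITX1+ section lay below the Control sections of its own slide, but the groups overlapped between slides, and the log2 fold change of -0.95 ± 0.46 did not pass (edgeR adjusted p = 0.14), while DESeq2 called it lower (-1.02, adjusted p = 0.0487). In the cheek *Lor* stood at 29610 to 43190 CPM with a median of 38319, a range that includes the female Control sections. Its log2 fold change against Control skin was 1.78 ± 0.37 after TMM scaling (edgeR adjusted p = 0.00141) and 0.29 with library size alone (adjusted p = 0.417), so whether *Lor* was raised in the cheek depended on the scaling. Per keratinocyte-like cell there were 0.429 to 2.32 *Lor* transcripts in Control skin and 5.43 to 11.4 in the cheek. These counts are not scaled for depth. The median of all panel transcripts per such cell was 25 to 47 in Control skin and 124 to 214 in the cheek, so they give no direction for *Lor*.

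*Ivl*, the involucrin gene, hardly differed between the skin conditions and was near the floor in the cheek. Control sections held 5523, 6030 and 1810 CPM, and PITX1+ sections 6732, 4290, 1459 and 1708 CPM. Levels followed the slide, and within a slide the conditions lay close together. The log2 fold change was -0.11 ± 0.26 (edgeR adjusted p = 0.744). Buccal sections held 8.92 to 70.9 CPM with a median of 13.9, a log2 fold change of -6.11 ± 0.63 against Control skin (edgeR adjusted p = 1.38e-05).

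*Cnfn*, the cornifelin gene, ran opposite to *Flg2* between Control skin and the cheek. It was counted at 436, 249.98 and 446 CPM in Control skin, from 65 to 165 transcripts a section, and at 5118 to 7163 CPM in the cheek with a median of 5828. The cheek was higher in 6 of 6 sections, with a log2 fold change of 5.36 ± 0.41 (edgeR adjusted p = 1.46e-06). PITX1+ sections held 1174 and 1198 CPM on the female slide and 658 and 461 CPM on the male slide. All 4 lay above all Control sections, the last by a small margin. In the male PITX1+ sections 55.5% and 52.4% of the *Cnfn* of the section lay in hair follicle-like cells. That share was 3.66% and 6.23% in the female PITX1+ sections and 2.96%, 9.21% and 1.52% in the Control sections. The male levels thus do not describe differentiated-like cells, which are taken alone below. The log2 fold change was 1.19 ± 0.50 over both slides (edgeR adjusted p = 0.106), 2.07 ± 0.33 on the female slide (adjusted p = 4.24e-05) and 0.24 ± 0.62 on the male slide (adjusted p = 0.789), and the difference between the slides was -2.09 (adjusted p = 0.108). DESeq2 called *Cnfn* higher over both slides (1.11, adjusted p = 0.024).

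**Figure D1:**
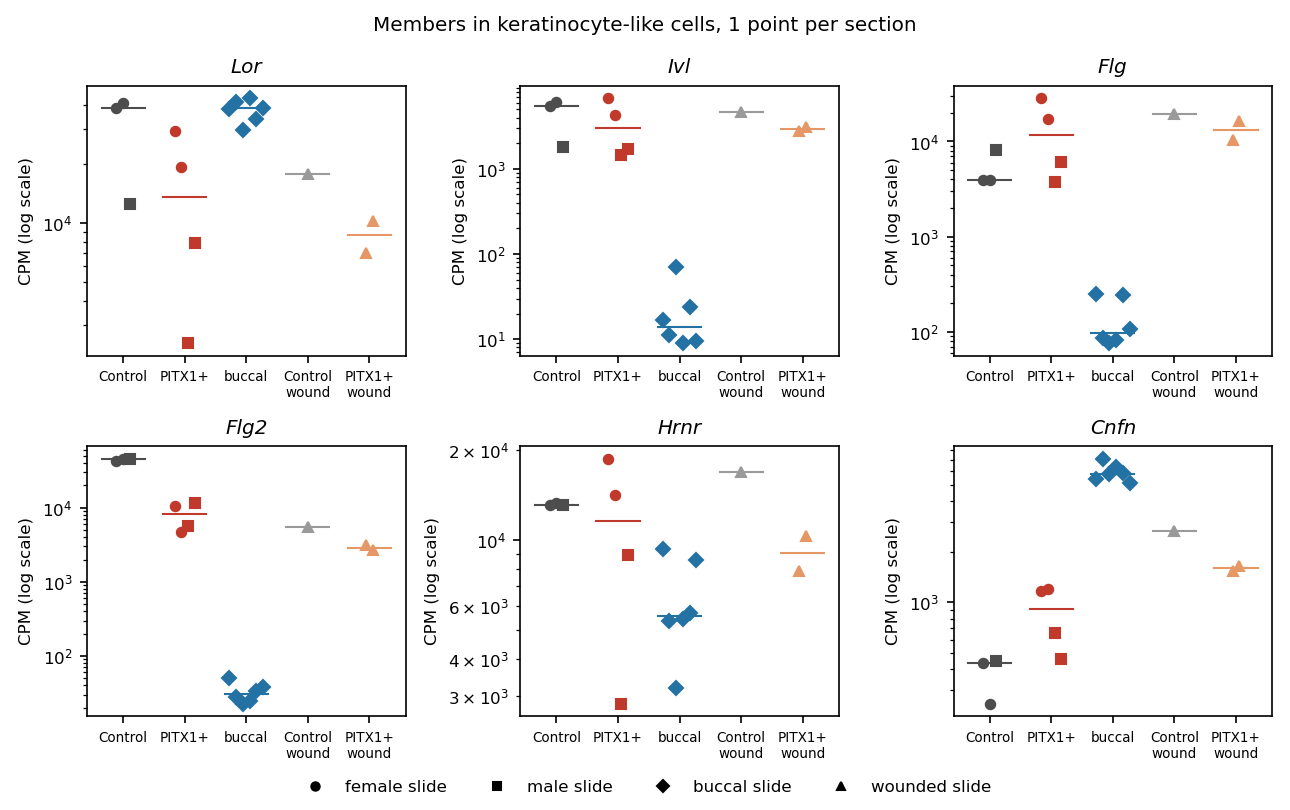
Level of each gene in keratinocyte-like cells by section, in CPM on a log axis, for Control skin, PITX1+ skin, buccal mucosa and wounds (circles female slide, squares male slide, diamonds buccal slide, triangles wounds, lines group medians). *Flg2* falls in steps from 42318 to 46107 CPM in Control skin to at most 11707 in PITX1+ skin and at most 50.7 in the cheek, while *Cnfn* is highest in the cheek.

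Against all panel genes, the 6 did not stand out between PITX1+ and Control skin. In keratinocyte-like cells 0 of 6 rose, where 13.1% of the 328 genes tested did, and 1 of 6 fell, where 14% did, with a median log2 fold change of -0.22 over the 6 and -0.05 over all genes. On the female slide alone 2 of 6 rose (23.2% of all genes) and 1 fell (20.1%). On the male slide alone 0 rose (15.5%) and 1 fell (5.18%). A difference between the slides passed in 1 of 6 with a lower value on the male slide (2.74% of all genes) and in 0 of 6 with a higher one (1.22%).

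The cheek against Control skin gave 2 of 6 higher, where 31.7% of 325 genes were, and 3 of 6 lower, where 37.2% were. The 3 that fell were *Ivl*, *Flg* and *Flg2*. PITX1+ skin against the cheek gave 3 of 6 higher (38.1% of 323 genes) and 2 of 6 lower (23.2%). *Flg2*, *Ivl* and *Flg* were higher in PITX1+ skin by 6.80, 6.11 and 5.57 on the log2 scale, *Cnfn* and *Lor* differed by -3.93 and -2.49, and *Hrnr* by -0.30 (edgeR adjusted p at most 0.00322 for the first 5 and 0.579 for *Hrnr*). These comparisons share their sections. Tissue and slide cannot be told apart for the cheek.

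**Figure D2:**
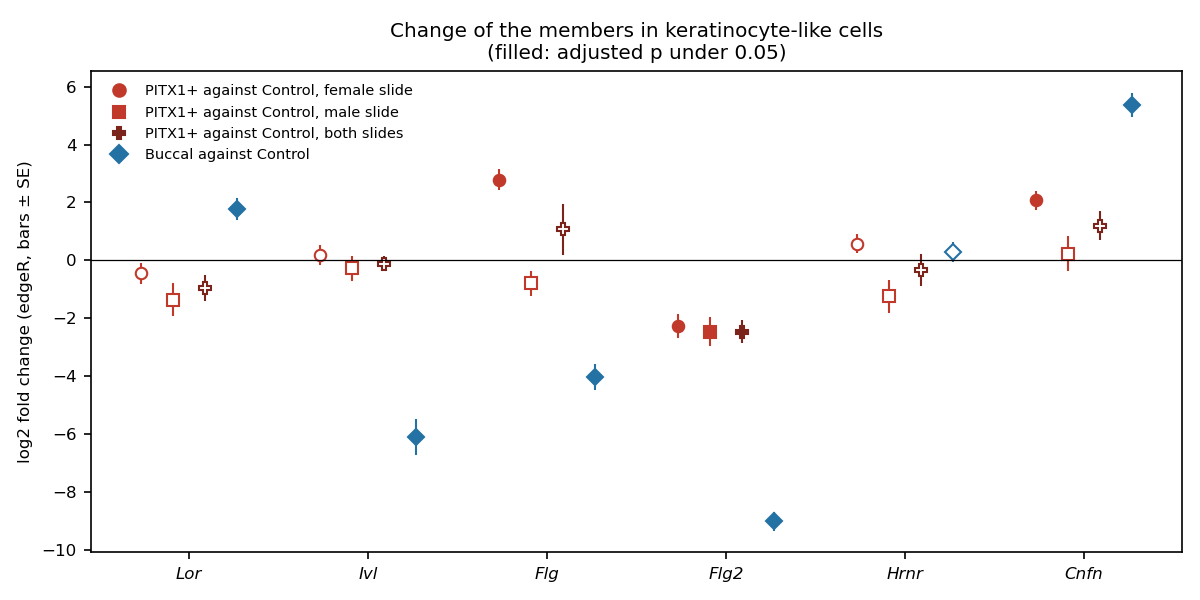
Log2 fold change of each gene in keratinocyte-like cells from edgeR, with bars of 1 SE, for PITX1+ against Control skin on the female slide, the male slide and both, and for buccal mucosa against Control skin (filled symbols have an adjusted p under 0.05). *Flg2* is negative in all 4, and *Flg* is at 2.79 on the female slide and -0.80 on the male slide.

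The trace of *Ivl* and *Flg2* left in the cheek was set against codes that match no gene. Over the buccal slide there were 159 *Ivl* and 254 *Flg2* transcripts, while a negative control probe had a median of 24 and at most 151 and a blank code a median of 9 and at most 141. Of the reads there, 23.3% for *Ivl* and 18.9% for *Flg2* reached the quality score of 20, against 79.6% and 83.9% on the male skin slide. Among buccal differentiated-like cells 0.429% to 1.64% held a *Flg2* transcript, and among basal-like cells 0.445% to 0.729%. In cells of the same sections that were not keratinocyte-like the share was 0.0559% to 0.169%. Median depths were 156 to 370, 96 to 151 and 43 to 93 transcripts per cell. For *Ivl* the shares were 0.143% to 0.819%, 0.174% to 0.761% and 0% to 0.0875%, in the same order, so basal-like and differentiated-like cells overlapped for both genes. *Flg*, with 862 transcripts and 60.5% of its reads at the quality score, lay farther above these codes. In Control skin 80.2% to 96.9% of differentiated-like cells and 44.1% to 74.4% of basal-like cells held a *Flg2* transcript. The share was 0.574% to 2.20% in cells that were neither keratinocyte-like nor sebaceous-like.

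The levels were also taken in differentiated-like cells alone. Control cells of this kind lay mainly in clusters 41 (56.4%) and 42 (43.5%), both with *Krt77* and *Krt1* among their leading genes. These shares pool the sections, and the male Control section gave 1371 of the cells, against 676 and 458 in the female ones. Its cells held 1304 *Lor* transcripts, against 6742 and 3919 in the fewer female cells. Median depths in the Control sections ran from 25 to 95 transcripts per cell of this kind, so the male and female Control cells were unlike. PITX1+ cells lay in cluster 9 (41.9%), with *Areg* and *Krt16* among its leading genes, cluster 33 (25.3%) and cluster 41 (16.6%), and 99.4% of buccal cells in cluster 15, led by *Krt4* and *Krt78*, so the class is not made of the same cells in the 3 tissues. Over all sections *Flg2* stood at 305 CPM in cluster 9, 1861 in cluster 33, 73422 in cluster 41 and 46310 in cluster 42. *Flg* stood at 731, 28229, 56892 and 102597 CPM in the same clusters. *Flg2* stood at 105200, 103716 and 101731 CPM in Control skin and at 18434, 8918, 24014 and 61885 CPM in PITX1+ skin. It fell by 1.94 on the log2 scale, a fold change of -1.94 ± 0.52 (edgeR adjusted p = 0.0278), lower in 4 of 4 sections. The call was lost on the male slide alone (-1.39, adjusted p = 0.701), with 60 clusters (adjusted p = 0.124), without the slide as covariate (0.0982) and without Control section 1 (0.114), Control section 2 (0.140), PITX1+ section 1 (0.111) or PITX1+ section 2 (0.144). Of the 6 genes 0 rose, where 17.2% of 319 genes did, and 1 fell, where 8.78% did.

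*Flg* in these cells was counted at 10948, 9234 and 19591 CPM in Control skin and at 54635, 40414, 15653 and 33862 CPM in PITX1+ skin, so 3 of 4 PITX1+ sections lay above all Control sections. Its log2 fold change was 1.76 ± 0.65 over both slides (edgeR adjusted p = 0.0688), 2.89 on the female slide (adjusted p = 0.000449) and 0.18 ± 1.33 on the male slide (adjusted p = 0.972). The fits by slide in these cells were added after the data were seen. It rose by 2.18 over both slides without PITX1+ section 3 (adjusted p = 0.0278). *Cnfn* stood at 1121, 513 and 874 CPM against 1570, 2512, 627 and 938 CPM, with a log2 fold change of 1.11 ± 0.57 over both slides (adjusted p = 0.183) and 2.07 on the female slide (adjusted p = 0.0194). Whether *Flg* passed over both slides thus turned on PITX1+ section 3 and on the method, since DESeq2 called it with all sections (1.68, adjusted p = 0.00991). *Lor* (-0.10), *Ivl* (0.39) and *Hrnr* (0.58) did not pass over both slides. On the female slide *Hrnr* rose by 0.98 (edgeR adjusted p = 0.0247).

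In the differentiated-like cells of the cheek the same genes passed as in all keratinocyte-like cells, 2 of 6 higher (34% of 312 genes) and 3 of 6 lower (34.6%). *Cnfn* was at 6836 to 8639 CPM with a log2 fold change of 5.16 ± 0.32 against Control skin (edgeR adjusted p = 7.75e-08). *Lor* was at 42222 to 52844 CPM, below the female Control sections (96866 and 87411 CPM) and above the male one (25910 CPM), and its log2 fold change was 1.51 with TMM scaling (adjusted p = 0.00169) and -0.51 with library size alone (adjusted p = 0.159). *Hrnr* was at 0.15 with TMM (adjusted p = 0.684) and was called lower with library size alone, at -1.79 (edgeR adjusted p = 9.98e-05). *Flg2* had a log2 fold change of -9.88, *Ivl* of -7.25 and *Flg* of -4.39 (edgeR adjusted p at most 1.25e-05).

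Ratios between the counts of 2 genes summed over the same class of a section do not depend on scaling, but they can depend on its makeup. In differentiated-like cells of Control skin there were 0.104, 0.0890 and 0.193 *Flg* transcripts per *Flg2* transcript. PITX1+ skin had 2.96 and 4.53 on the female slide and 0.652 and 0.547 on the male slide. All PITX1+ sections lay above all Control sections, so the summed balance of the filaggrin pair in this class shifted toward *Flg* on both slides, though *Flg* itself rose on 1 of them. Over all sections *Flg* and *Flg2* stood at 28229 and 1861 CPM in cluster 33, which was rare in Control skin. They stood at 56892 and 73422 CPM in cluster 41 and at 102597 and 46310 CPM in cluster 42. The part of makeup in this shift was not tested. *Flg2* per *Hrnr* went from 3.27, 3.82 and 3.75 in Control skin to 0.490, 0.252, 2.07 and 1.36 in PITX1+ skin, and to between 0.00256 and 0.00373 in the cheek. *Lor* per *Flg* was 8.85, 9.47 and 1.32 in Control skin and 0.633 to 1.23 in PITX1+ skin, so the male Control section lay just above the PITX1+ range. In the cheek there were 139 to 623 *Lor* transcripts per *Flg* transcript.

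Of the 15 pairs of the 6 genes, 6 did not overlap between PITX1+ and Control skin, and 29.1% of all pairs of panel genes did not. These were *Flg* with *Flg2*, *Hrnr* and *Lor*, *Flg2* with *Hrnr* and *Cnfn*, and *Lor* with *Ivl*. Between the cheek and Control skin 14 of 15 pairs did not overlap, against 58.6% of all pairs.

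**Figure D3:**
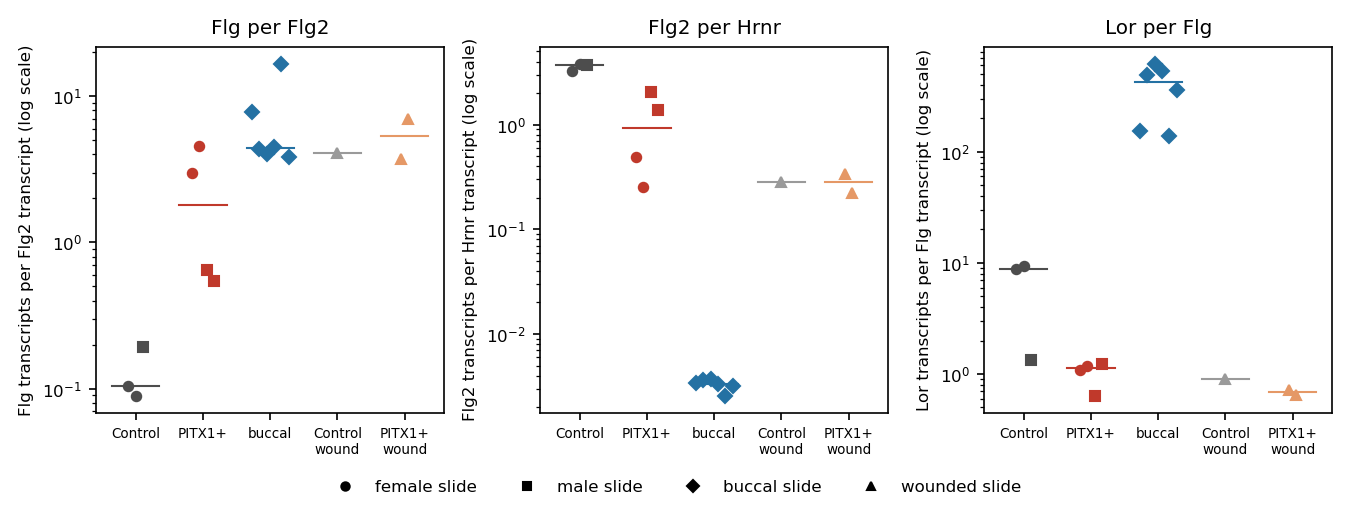
Transcripts of *Flg* per *Flg2*, *Flg2* per *Hrnr* and *Lor* per *Flg* in differentiated-like cells by section, on log axes (symbols as for the levels, lines group medians). *Flg* per *Flg2* lies between 0.0890 and 0.193 in Control skin, between 0.547 and 4.53 in PITX1+ skin and at 4.08 in the Control wound.

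Position in the epithelium was measured as the distance from each transcript in a keratinocyte-like cell to the centre of the nearest basal-like cell, with the median taken per section. In Control skin the medians of the 6 genes lay between 5.92 and 11.1 µm, with the median over all panel genes at 6.61 to 12.3 µm. Control basal-like cells, 88.5% of them in cluster 39, which has *Krt77* and *Krt1* among its leading genes, themselves held *Lor* at 13420 to 47551 CPM and 27.3% to 59.5% of the *Lor* of a section, so basal and cornifying cells were poorly separated. PITX1+ basal-like cells lay in cluster 18 (74.2%) and cluster 39 (25.0%). They held *Lor* at 3834 and 955 CPM on the female slide and at 11407 and 19174 CPM on the male slide, where they had 10.3% and 29.4% of the *Lor* of the section, so the separation was incomplete there too. Buccal basal-like cells lay in cluster 25 (94.5%), with *Lor* at 516 to 1740 CPM.

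In PITX1+ skin, *Lor* lay at 22.5 and 29.1 µm from basal-like cells on the female slide and at 13.8 and 8.97 µm on the male slide, against 6.48, 5.92 and 8.54 µm in Control skin. *Flg*, *Flg2* and *Hrnr* followed it, at 21.2 to 28.0 µm and 8.24 to 14.5 µm. *Cnfn* did so on the female slide alone, at 27.1 and 31.0 µm, while on the male slide its median was 107 and 152 µm, as far out as the median of all panel genes there (101 and 124 µm). *Ivl* lay at 97.3 µm in PITX1+ section 3 and at 10.0 to 24.1 µm in the others. *Lor*, *Ivl* and *Cnfn* were farther out in 4 of 4 sections, with no overlap, as were 67.6% of 318 panel genes. Two-sided exact permutation tests over sections gave p = 0.0571 for each of the 3, which is the lowest possible with 4 sections and 3, and an adjusted p of 0.108 over all genes and both comparisons.

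In the cheek *Cnfn*, *Lor* and *Hrnr* formed a depth order. *Cnfn* lay at 21.7 to 34.2 µm from basal-like cells, *Lor* at 28.3 to 39.8 µm and *Hrnr* at 28.3 to 46.8 µm, with all panel genes at 11.3 to 22.5 µm. *Lor* was farther than *Cnfn* by 5.18 ± 1.11 µm (SD, n = 6 sections, farther in 6 of 6) and *Hrnr* farther than *Lor* by 5.29 ± 2.87 µm (6 of 6). Each gave p = 0.0313 in a two-sided exact permutation test of the pairs, the smallest that 6 sections allow, unadjusted among the pairs of genes compared. *Flg* lay at 27.3 to 51.2 µm, from 46 to 302 transcripts a section, and it lay farther than *Hrnr* in 4 of 6. Among 203 genes measured in all 6 sections, *Flg* ranked 6, *Hrnr* 7, *Lor* 19 and *Cnfn* 24 from the farthest. *Ivl*, in 2 sections with at least 20 transcripts, had no stable place, at 88.8 µm in buccal section 1 and 5.71 µm in buccal section 4. The few *Flg2* transcripts, in 4 sections with at least 20, lay at 5.02 to 8.03 µm. Their difference from Control skin had no stable direction, at -0.86 µm with these medians, 6.97 µm with means and 36.4 µm with 30 clusters. Against Control skin, *Lor*, *Flg*, *Hrnr* and *Cnfn* were farther out with no overlap, as were 24% of 267 genes (exact permutation p = 0.0238, the smallest for 6 against 3, and 0.101 after adjustment).

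**Figure D4:**
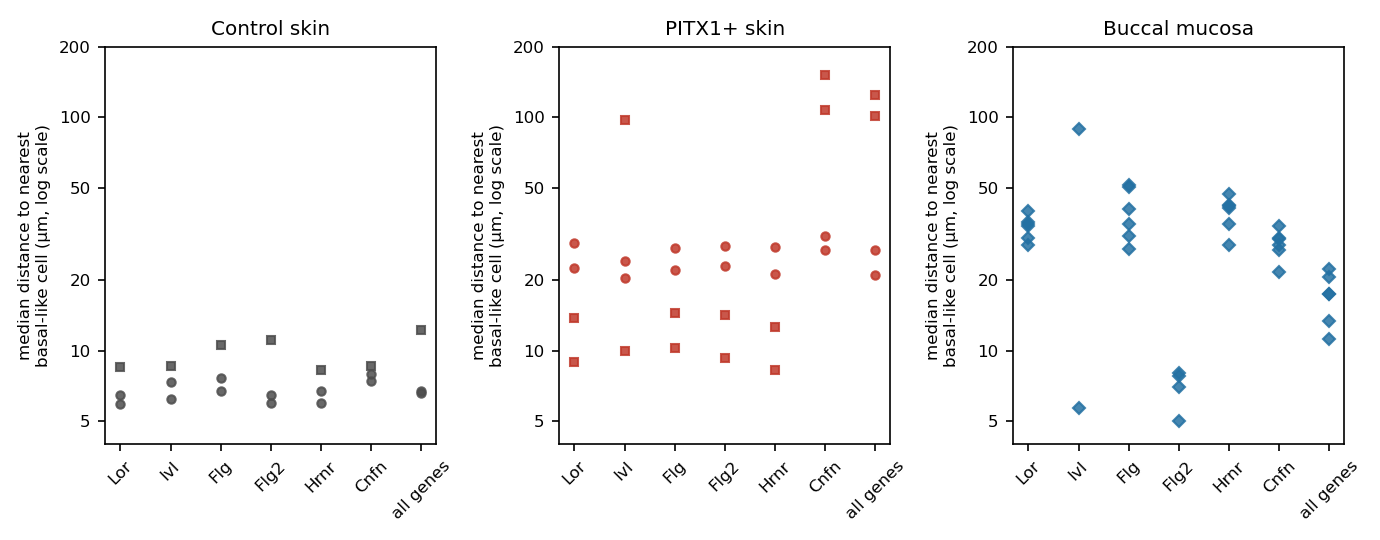
Median distance in µm, on a log axis, from the transcripts of each gene in keratinocyte-like cells to the nearest basal-like cell, 1 symbol per section (circles female, squares male, diamonds buccal), with the median over all panel genes at the right. Control values reach at most 12.3 µm, and in PITX1+ skin *Cnfn* splits into 27.1 and 31.0 µm on the female slide and 107 and 152 µm on the male slide.

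Single fields show the transcripts behind these values. In the 300 µm window with the most transcripts of the 6 genes, Control section 1 held 490 *Lor*, 563 *Flg2*, 44 *Flg* and 2 *Cnfn* transcripts near 66 basal-like cells. PITX1+ section 1 held 2354 *Lor*, 699 *Flg2* and 2165 *Flg* transcripts with 70 of *Cnfn*. Buccal section 1 held 5117 *Lor*, 2078 *Hrnr*, 637 *Cnfn*, 14 *Flg*, 3 *Flg2* and 0 *Ivl* transcripts near 135 basal-like cells.

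**Figure D5:**
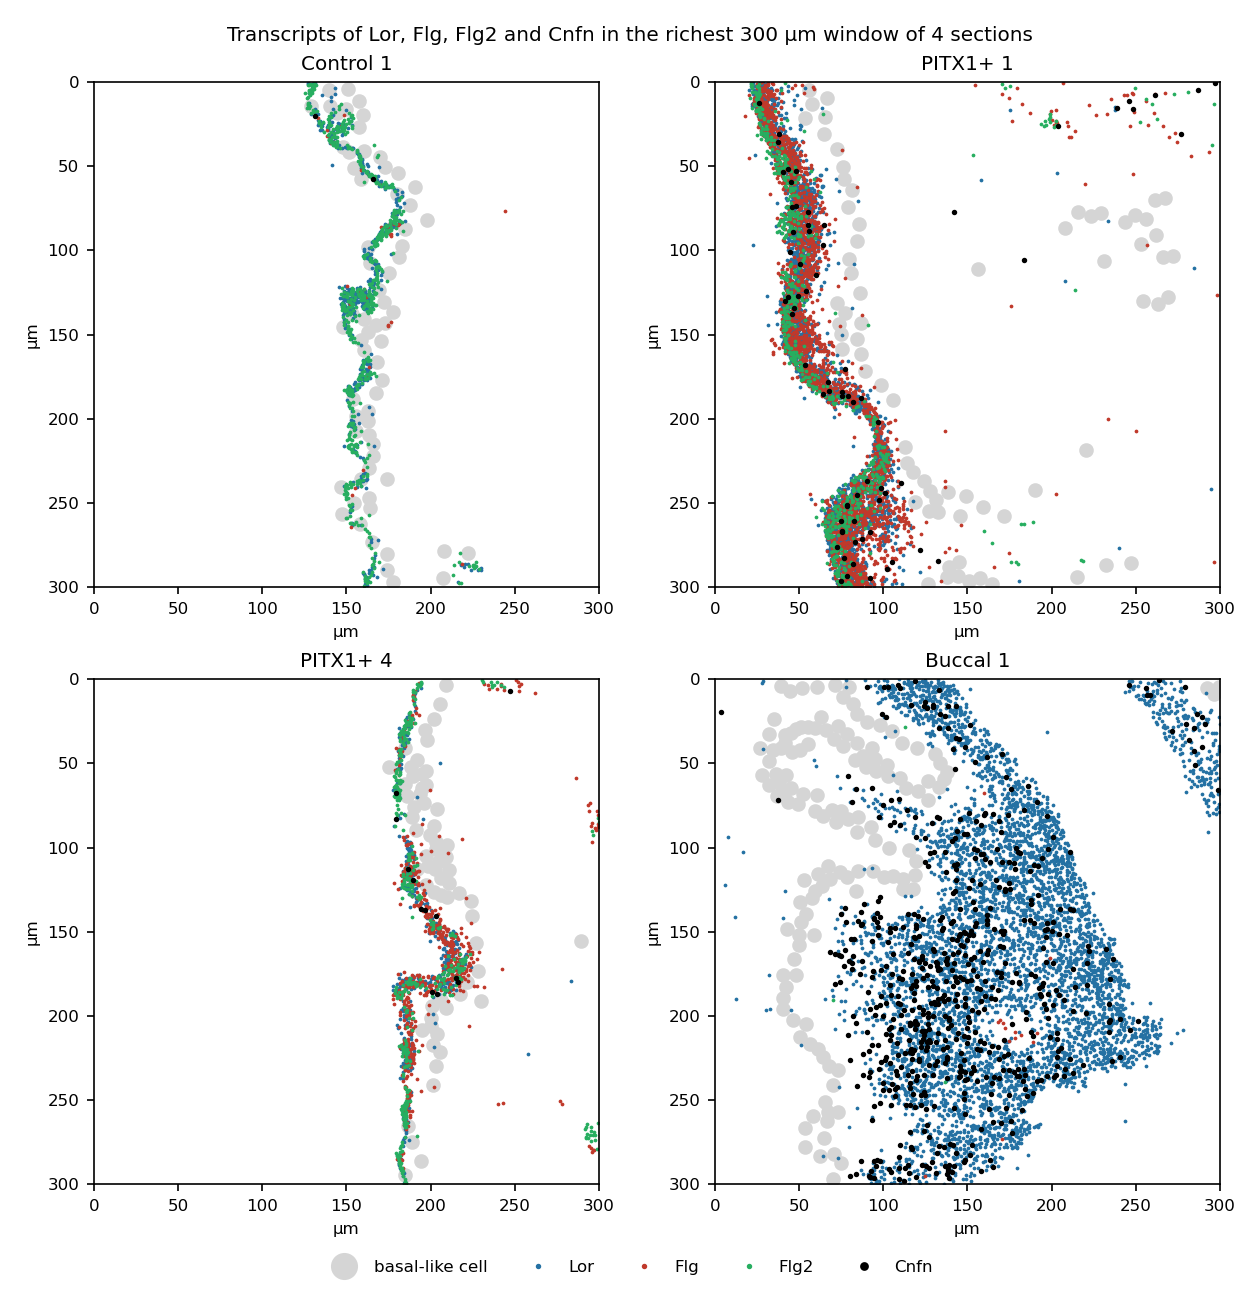
Positions in µm of *Lor*, *Flg*, *Flg2* and *Cnfn* transcripts and of basal-like cells (grey) in the 300 µm window richest in the 6 genes, for Control section 1, PITX1+ sections 1 and 4 and buccal section 1. *Flg2* is the most frequent of the 4 in Control section 1 (563 transcripts), *Flg* is frequent in PITX1+ section 1 (2165), and *Lor* and *Cnfn* fill the buccal window (5117 and 637).

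The distant *Cnfn* and *Ivl* transcripts of male PITX1+ skin led to a comparison, added after the data were seen, in hair follicle-like cells. *Cnfn* stood there at 80.0, 125 and 23.6 CPM in Control skin, resting on only 6, 7 and 1 transcripts. The PITX1+ values were 360, 275, 860 and 462 CPM, above all Control sections in 4 of 4. *Cnfn* rose by 2.20 ± 0.53 on the log2 scale (edgeR adjusted p = 0.00739). Between 81.7% and 98.3% of it lay in cluster 32, led by the hair shaft cadherin gene *Dsg4* and the hair keratin-associated gene *Krtap17-1*, which had 715 to 2947 cells in PITX1+ sections and 1 to 5 in Control sections. The Control wound had 759 cells of cluster 32, which held *Cnfn* at 4703 CPM and *Ivl* at 6784 CPM, higher than its 1107 to 3701 and 1397 to 3556 CPM in unwounded PITX1+ skin. The PITX1+ wounds had 424 and 20 such cells, with *Cnfn* at 3082 and 882 CPM and *Ivl* at 1321 and 0 CPM. The few cluster 32 cells of unwounded Control skin held 0 *Cnfn* transcripts. For the Control condition, *Cnfn* in this cluster thus rests on the 1 wound.

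*Flg2*, *Lor* and *Hrnr* fell in hair follicle-like cells, by 3.35, 2.22 and 1.21 on the log2 scale (edgeR adjusted p = 5.54e-05, 0.000834 and 0.00695), while *Flg* at -0.69 and *Ivl* at 0.08 did not pass (adjusted p = 0.0925 and 0.91). DESeq2 called *Flg* lower (-0.82, adjusted p = 0.0289). The class held different clusters in the conditions. Cluster 16, led by *Wfdc3* and *Krt15*, made up 95.2% to 96.4% of it in Control sections, cluster 3, with *Shh* among its leading genes, 74.6% and 72.5% in the female PITX1+ sections, and cluster 6, with *Lgr5* and *Lhx2* among its leading genes, 62.7% and 61.9% in the male ones. Of the 6 genes 1 rose, where 21.3% of 328 genes did, and 3 fell, where 22% did. These levels were low. *Flg2* was at 1182 to 2599 CPM in Control follicle-like cells and at 309 to 872 CPM in Control cells that were not keratinocyte-like, and the part of transcripts from neighbouring cells in these levels was not tested.

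Wounds were described without a test, with exact 95% Poisson intervals that cover counting error only. In differentiated-like cells the Control wound held *Flg* at 40170 CPM (39482 to 40867) and *Flg2* at 9834 CPM (9495 to 10182), outside the ranges of unwounded Control skin, at 9234 to 19591 and 101731 to 105200 CPM. Its *Flg* per *Flg2* ratio of 4.08 lay beside the 3.70 and 6.96 of the PITX1+ wounds and the 2.96 and 4.53 of unwounded female PITX1+ skin. The wounds were male, and both unwounded male PITX1+ sections had far lower ratios, given above. The PITX1+ wounds held *Flg* at 21319 and 32468 CPM and *Flg2* at 5764 and 4664 CPM. *Cnfn* was at 4107 CPM in the Control wound, above unwounded Control skin, and at 1753 and 1399 CPM in the PITX1+ wounds. *Lor* was at 36450 CPM against 15411 and 20938, *Ivl* at 7381 against 4777 and 4886, and *Hrnr* at 34483 against 16998 and 20991. All 6 genes were thus higher in the 1 Control wound than in both PITX1+ wounds, as were 25% of the 324 panel genes counted in all 3. Of the Control wound cells of this kind, 53.3% lay in cluster 33, led by *Krt1* and *Krt16*, and of the PITX1+ ones 54.5% in cluster 9. Over all sections cluster 33 held *Lor* at 24738, *Ivl* at 7332, *Flg* at 28229, *Flg2* at 1861, *Hrnr* at 22476 and *Cnfn* at 1928 CPM. In cluster 9 they stood at 397, 2084, 731, 305, 461 and 673 CPM, in that order. A difference in makeup and one in level per cell were thus not told apart.

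Other genes of the cornified envelope were counted on the same panel. Of the small proline-rich protein genes and the transglutaminase gene *Tgm3*, 3 of 6 rose in keratinocyte-like cells of PITX1+ skin, where 13.1% of all genes did, and 0 fell, where 14% did, with a median log2 fold change of 2.63. These were *Sprr1a* (2.56), *Sprr1b* (4.04) and *Tgm3* (2.69, edgeR adjusted p at most 0.0156). *Sprr2a3*, at 2.27, did not pass over both slides and differed between them by -4.83, male minus female (edgeR adjusted p = 0.0034). In the cheek 6 of 6 were higher than in Control skin, by 5.28 to 8.92, where 31.7% of all genes were higher. Their median thus lay above that of all genes in both comparisons, where the 6 late genes had -0.22 and -1.87. In differentiated-like cells of PITX1+ skin 5 of 6 of this list rose (17.2% of 319 genes) and 0 fell (8.78%). *Sprr2a3*, at 3.63, and *Sprr2d*, at 4.58, passed there (edgeR adjusted p = 0.0422 and 0.0253).

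Of 5 protease inhibitor genes 1 rose in PITX1+ skin (13.1% of all genes) and 1 fell (14%). The first was *Slpi* at 5.82, which encodes secretory leukocyte peptidase inhibitor, and the other *Serpinb2* at -1.72 (edgeR adjusted p = 0.0014 and 0.00845). In differentiated-like cells *Slpi* rose by 6.45 and *Serpinb2*, at -0.08, did not pass (adjusted p = 0.898). In the cheek 4 of 5 were higher (31.7% of all genes), and with library size alone the fifth, *Stfa3*, was called lower (-2.23, edgeR adjusted p = 0.00793). Of 4 regulators of differentiation 2 rose in PITX1+ skin, *Cebpb* by 1.15 and *Dlx3* by 2.48, and 0 fell, against the same 13.1% and 14%, while *Klf4* (-0.54) and *Grhl3* (-0.50) did not pass. In differentiated-like cells *Cebpb* rose by 1.40, a call lost with library size alone, and *Dlx3*, at 0.55, did not pass (edgeR adjusted p = 0.309). In hair follicle-like cells, which held different clusters in the conditions, *Dlx3* rose by 4.13 and *Cebpb* by 1.08 (edgeR adjusted p = 5.54e-05 and 0.0253). *Klf4* was lower there, at -0.82 (edgeR adjusted p = 0.0138), where 21.3% of all genes rose and 22% fell. All 4 were higher in the cheek than in Control skin, by 1.82 to 3.30 with TMM and by 0.49 to 2.16 with library size alone, *Klf4* having the smallest change in both (31.7% of all genes were higher with TMM). In differentiated-like cells of the cheek *Dlx3* (0.33) and *Klf4* (0.17) did not pass with library size alone (edgeR adjusted p = 0.339 and 0.391). PITX1+ skin stayed below the cheek in 5 of 6 genes of the first list, 3 of 5 of the second and 2 of 4 of the third, where 23.2% of all genes were lower, and above it among these lists in *Stfa3* alone (3.03, edgeR adjusted p = 0.00093), where 38.1% of all genes were higher. With library size alone *Dlx3* was above it too, and 4 of 6 of the first list were below it.

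The panel genes most like each member were named by the correlation of log2(CPM + 10) across the 13 sections, in which skin and cheek stand apart, so r over the 7 skin sections is given beside it as a description. *Flg2* was most like *Krt77*, a keratin of suprabasal skin (r = 1.00 over 13 sections and 0.98 over 7). *Flg* was most like *Krt79* (0.97 and 0.91) and *Krt1* (0.97 and 0.82). *Cnfn* was most like *Il1f6* (0.98 and 0.94) and *Il1f8* (0.98 and 0.85), interleukin 1 family genes, and *Lor* most like *Krt78* (0.81 and 0.89). *Hrnr* was nearest to *Mmp3* (0.86 and 0.86). For *Ivl* the leading gene, *Lrig1*, had 0.98 over all sections and 0.37 over skin, so that likeness rested on the gap between skin and cheek. Among the members, *Lor* and *Ivl* (0.90) and *Lor* and *Hrnr* (0.89) varied together over the skin sections, *Flg* went with *Cnfn* (0.81), and *Flg2* ran against *Cnfn* (-0.78). Every female section lay above every male one in *Lor* and in *Ivl*, so the r of that pair includes the gap between the slides.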

How the data were processed

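Xenium data of 4 slides were used. For each slide the authors deposited the transcripts table of the instrument, in which every decoded transcript has a gene, a position, a quality score and a cell, and a cells table with raw counts per cell, neither of them normalized. The deposited quality score was used as a filter at 20, and the transcripts so kept added up to the deposited count of every cell. The cell and nucleus outlines were not used.

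Sections were formed by joining cells within 100 µm (200 µm for wounds) and keeping groups of at least 2000 cells. Cells with at least 10 transcripts were clustered by k-means (45 clusters, 40 principal components, Python 3.11.15, scikit-learn 1.9.0) without 22 genes, and clusters were named from marker lists by a rule set after the clusters were seen. Doublets were not removed. For each section and class the counts were added up, and a section with under 50 cells of a class was left out. Sums were compared with the quasi-likelihood test of edgeR 4.0.16 in R 4.3.3 (TMM scaling, genes kept by filterByExpr, Benjamini-Hochberg adjustment over all genes tested, threshold 0.05), with slide as covariate in skin. The SE is the log2 fold change divided by the square root of F. The script was tested on simulated data. Distances were compared with two-sided exact permutation tests (scipy 1.17.1), adjusted over all panel genes. That adjustment replaced one over the 6 genes, and ratios were given no p.

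Genes named are the 6 members, *Pitx1*, 3 lists of related genes and, per member, up to 2 panel genes of the most similar pattern. The members and lists were chosen with earlier results of these data known. Alternatives were DESeq2 1.42.0, library size in place of TMM, no gene filter, transcripts of any quality or over the nucleus, at least 20 transcripts per cell, all cells, 30 or 60 clusters, no slide covariate, 1 slide at a time, other distance measures, and each section left out.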

Additional observations from a re-analysis of the deposited data

Results flagged for a closer look

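In 35 groups of 4 to 10 sections examined for a section far from the rest, 3 such values were found, and chance flags about 1 in 20 groups. *Ivl* stood at 70.9 CPM in keratinocyte-like cells and at 42.4 CPM in differentiated-like cells of buccal section 4, where the next highest sections had 24.1 and 10.1 CPM, from 72 and 30 transcripts. The median distance of *Ivl* transcripts from basal-like cells was 97.3 µm in PITX1+ section 3, against 10.0 to 24.1 µm in the other PITX1+ sections.

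The change between PITX1+ and Control skin differed between the slides for 5 of the 22 genes left out of the clustering. Of all 328 panel genes, 2.74% had a lower change on the male slide and 1.22% a higher one. The male change rests on 1 Control section. For *Flg* the male change minus the female one was -3.90 in log2 units (interaction in edgeR, adjusted p = 0.0138), and for *Pitx1* it was 5.37 (adjusted p = 0.0175). Among the lists it was -4.83 for *Sprr2a3*, -5.95 for *Cstdc5* and -6.77 for *Stfa3* (edgeR adjusted p = 0.0034 for each). *Hrnr* moved in opposite directions on the slides, with a mean log2 ratio to the Control sections of 0.31 in the female PITX1+ sections and with both male sections below their Control section, while the interaction in edgeR gave an adjusted p of 0.182.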

How the results depend on the processing

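Conditions rest on the positions of sections, and 1 male Control section carries the male contrast. Low counts limit *Cnfn* and *Pitx1* in Control skin and *Ivl* and *Flg2* in the cheek. No paired analysis was possible because the sections carry no shared replicate numbers.

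For PITX1+ against Control keratinocyte-like cells, members rising numbered 1 with DESeq2, which was *Cnfn*, 1 with all cells and 2 on the female slide, and members falling 2 with DESeq2, *Flg2* and *Lor*. With each section left out, rising members ranged from 0 to 2. Control section 3 is the only male Control, so the fit without it, which gave the count of 2, is the female contrast again and no check on that section, here and in differentiated-like cells. *Ivl* turned to 0.086 with any quality, 0.21 with all cells and 0.19 on the female slide, and ranged from -0.38 to 0.20 with sections left out. *Hrnr* turned to 0.037 with all cells and 0.58 on the female slide, and ranged from -0.64 to 0.59. *Flg* was -0.80 on the male slide. In differentiated-like cells, members rising numbered 1 with DESeq2, which was *Flg*, and 3 on the female slide, where 72 and 69 panel genes rose, and ranged from 0 to 2 with sections left out. Members falling numbered 0 with 60 clusters, 0 without the slide covariate and 0 on the male slide, and ranged from 0 to 1. *Lor* was 0.44 with 60 clusters and ranged from -0.55 to 0.11. On the male slide *Hrnr* was -0.066 and *Cnfn* -0.33. Between the slides, *Flg2* was 0.14 with library size alone, and 2 members were lower with DESeq2, *Flg* and *Cnfn*. In hair follicle-like cells *Ivl* ranged from -0.45 to 0.53.

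For the cheek against Control, members higher numbered 1 with library size alone and 1 with all cells in keratinocyte-like cells, and 1 with library size alone in differentiated-like cells, where *Lor* turned to -0.51. *Hrnr* was -1.07 with library size alone, -0.12 over the nucleus and -0.23 with all cells. In differentiated-like cells it was -1.79 with library size alone and -0.19 with DESeq2, and ranged from -0.044 to 0.26 with sections left out. Against PITX1+ skin it was 0.83 with library size alone, 0.76 with all cells and between -0.61 and 0.10 with sections left out, and members lower numbered 1 with all cells. The distance of buccal *Flg2* minus Control, -0.86 µm, was 6.97 with the mean, 36.4 with 30 clusters and 0.67 with 60, and ranged from -1.79 to 0.76.

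Over all panel genes, DESeq2 called 71 higher and 108 lower between PITX1+ and Control keratinocyte-like cells, where edgeR called 43 and 46, and without the slide covariate edgeR called 22 and 10. Leaving out single sections gave 19 to 62 higher and 12 to 56 lower. In differentiated-like cells DESeq2 called 64 lower and edgeR 28, with 14 lower for 60 clusters, 28 higher and 5 lower without the slide covariate, and 24 to 67 higher and 7 to 40 lower with sections left out. The difference between slides gave 17 and 16 genes with DESeq2 and 4 and 9 with edgeR. Library size alone gave 51 higher and 204 lower in the cheek, where TMM gave 103 and 121, and 50 and 212 in its differentiated-like cells, where TMM gave 106 and 108. It gave 194 higher and 37 lower for PITX1+ skin against the cheek (123 and 75 with TMM), and 42 and 50 in differentiated-like cells of PITX1+ against Control skin (55 and 28 with TMM). With all cells the cheek had 56 higher and 70 lower than Control skin, and PITX1+ skin 80 higher and 39 lower than the cheek.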
